A study of Mus musculus with 14 samples.

Results

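Retnla and 9 other genes, grouped here under alternatively activated macrophages, were followed in 14 bulk CT26 tumors. The 10 genes, of 53801 in the files, were Retnla, Lyz1, Mrc1, Cd163, Chil3, Mgl2, Clec10a, Folr2, Ccl24, and Il4ra. They were chosen on the values measured in these same tumors, to ask gene by gene whether expression rose in steps from control IgG tumors to anti-PD-1 non-responders to anti-PD-1 responders. Their values are therefore given as a description. All 10 were among the 16287 genes that passed edgeR's filter on low counts and were fitted, and which of them the fit called is stated with no p and supports nothing.

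CT26 cells, which derive from a colon carcinoma of the Balb/c strain and here carried lentiviral barcodes, were injected under the skin of both flanks of wild-type female Balb/c mice of 6 to 8 weeks, at 250000 cells per site. Each mouse received 200 μg of antibody, either control IgG or an antibody to PD-1, from day 7 and then every 3 days to a total of 5 doses, and tumors were harvested 3 days later. There were 5 control IgG tumors (14L, 14R, 16R, 17R, and 20R) from 4 mice, 4 anti-PD-1 non-responders (29L, 32R, 33L, and 33R) from 3 mice, and 5 anti-PD-1 responders (24L, 26R, 30L, 30R, and 35L) from 4 mice. The labels give the response of each tumor, and the tumors with the same number and the letters L and R were read as the left and right tumors of one mouse. The study assigned response by how large a tumor was when treatment ended, relative to control IgG tumors. Response and final tumor size therefore cannot be told apart. Whole tumors were sequenced, with cancer cells, host immune cells, and adjacent tissue mixed, so that a change in the number of macrophages and a change in RNA per macrophage cannot be told apart. In bulk tumors none of the genes can be assigned to a cell.

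Macrophages that meet IL-4 or IL-13 take on a state called alternative activation. Both cytokines bind receptors that contain the IL-4 receptor alpha chain, encoded by Il4ra, and the Janus kinases on the receptors activate the transcription factor STAT6. STAT6 then induces a set of genes that in the mouse includes Retnla, Chil3, Arg1, Mrc1, and the lectins Mgl2 and Clec10a. Other genes that are often listed with this state, such as Cd163 and Folr2, mark tissue-resident macrophages and are not all induced by IL-4.

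The promoter of Retnla is shown because Retnla had the widest range among the 10 genes, that of Lyz1 because its values were the most like those of Retnla among them, and that of Mrc1 because it was a member of the same set without the steps. These stretches are from RefSeq on GRCm38.p6, the assembly of mm10, run 5′ to 3′ on the strand of the gene from 250 bases before the RefSeq start site to the last base before it, and have matches to 5 searched motifs in capitals. For Retnla and Mrc1 the RefSeq start site lies inside the GENCODE gene, so that the windows reach past the GENCODE start given with each gene.

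Retnla, chr16:48842359-48842608, plus strand: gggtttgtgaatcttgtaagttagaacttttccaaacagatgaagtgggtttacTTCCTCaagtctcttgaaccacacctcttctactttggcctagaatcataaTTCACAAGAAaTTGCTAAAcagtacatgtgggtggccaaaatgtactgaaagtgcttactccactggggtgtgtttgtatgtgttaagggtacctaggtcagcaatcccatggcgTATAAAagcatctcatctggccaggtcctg
Lyz1, chr10:117292869-117293118, minus strand: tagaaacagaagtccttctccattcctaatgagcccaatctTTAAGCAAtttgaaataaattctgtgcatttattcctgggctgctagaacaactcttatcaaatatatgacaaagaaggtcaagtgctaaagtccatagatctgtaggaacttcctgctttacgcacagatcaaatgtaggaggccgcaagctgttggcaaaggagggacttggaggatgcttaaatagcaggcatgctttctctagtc
Mrc1, chr2:14229164-14229413, plus strand: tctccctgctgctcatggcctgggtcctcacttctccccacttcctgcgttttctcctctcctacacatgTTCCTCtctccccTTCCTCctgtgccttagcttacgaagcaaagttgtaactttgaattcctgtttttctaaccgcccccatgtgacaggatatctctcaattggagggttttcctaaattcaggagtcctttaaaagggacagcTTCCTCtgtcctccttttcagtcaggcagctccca

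The motifs were searched on both strands of the window from 250 bases before to 50 bases after each start site, in 32851 promoters of the RefSeq table. They were TTCNNNNGAA, the palindrome with a spacer of 4 bases that STAT6 prefers, TTCNNNGAA, the form with a spacer of 3 that other STAT proteins prefer, TTGCNNAA of C/EBP proteins, GAGGAA of PU.1, and TATAAA. Retnla had TTCNNNNGAA from position -145, which 6.95% of all promoters hold, TTGCNNAA from -134, which 10.8% hold, GAGGAA on the minus strand from -196, which 28.3% hold, and TATAAA from -30, which 13.6% hold. The STAT6 and C/EBP matches of Retnla lay 1 base apart and did not overlap. Lyz1 had TTGCNNAA on the minus strand from -209 and none of the other motifs. Mrc1 had GAGGAA on the minus strand at 3 places and none of the others. Outside these 3 genes, Chil3 had TTCNNNGAA from -172, which 8.3% of promoters hold, and TATAAA from -3, Mgl2 had 1 GAGGAA, and Cd163, Folr2, and Il4ra had no match. Clec10a and Ccl24 were not in the promoter table. A match is a run of letters in this window and says nothing of whether the factor was bound in these tumors.

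Expression is given as CPM, which is the RSEM expected count scaled by the library total and edgeR's TMM factor, and as TPM, which is also scaled by transcript length and is the unit in which genes are compared with each other. The total expected count was 33237744 to 48481461 per tumor, and the lowest count of Retnla in any tumor was 12 fragments. In the whole fit of edgeR's quasi-likelihood test, with Benjamini-Hochberg adjustment over all genes tested and a threshold of 0.05, responders had 1284 genes higher and 863 lower than control IgG tumors, non-responders had 0 different from control IgG tumors (758 at an unadjusted p under 0.05, and 16 with DESeq2), and responders had 827 higher and 785 lower than non-responders. On the scale of log2(TPM + 1), the median difference over all genes was 0.17 for responders minus non-responders, 0.08 for responders minus control IgG tumors, and -0.08 for non-responders minus control IgG tumors, and the calls split as 1522 higher and 305 lower in responders against control IgG tumors and 1969 higher and 191 lower against non-responders. The mean fragment length, read from the effective lengths in the files, was 268.7 to 277.7 bases in control IgG tumors, 277.5 to 287.8 in non-responders, and 269.5 to 277.0 in responders. Its part in the results was not tested.

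None of the 10 genes was strictly graded, that is, with every non-responder above every control IgG tumor and every responder above every non-responder. Of all genes tested, 0.0614% were. The mean log2 CPM rose in the order control IgG, non-responder, responder for 5 of the 10, Retnla, Lyz1, Clec10a, Folr2, and Ccl24, against 19.1% of all genes tested. Every non-responder was above every control IgG tumor for 2 members, Retnla and Lyz1, against 0.718% of all genes. Every responder was above every non-responder for 3, Mgl2, Clec10a, and Il4ra, against 6.8%, and every responder above every control IgG tumor for 4, Retnla, Lyz1, Clec10a, and Il4ra, against 8.34%. Since these values chose the genes, nothing is read from the counts. The 3 comparisons also share tumors, and the values of each are given side by side.

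**Figure D1:**
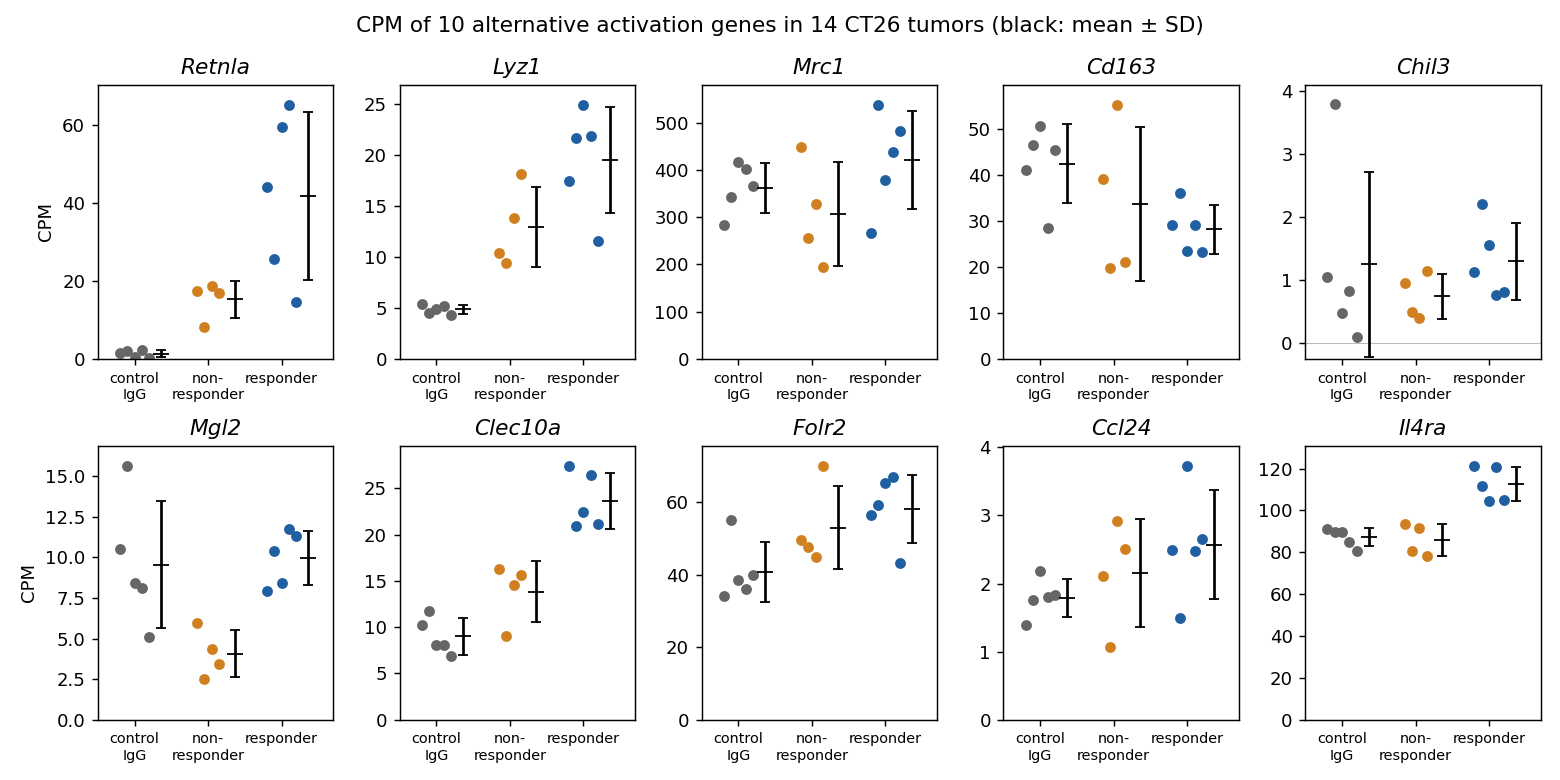
CPM of each of the 10 genes (vertical axes, linear, 1 panel per gene) in control IgG tumors (gray, n = 5), non-responders (orange, n = 4), and responders (blue, n = 5), with 1 point per tumor and the mean ± SD in black beside each group. Retnla and Lyz1 show 2 steps with overlap only at the upper step, Mgl2 is lowest in non-responders, and Il4ra has control IgG tumors and non-responders at one level.

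Retnla (ENSMUSG00000061100; mm10 chromosome 16, 48842551 to 48844461, plus strand) encodes RELM alpha, also called FIZZ1, a small secreted protein that alternatively activated macrophages release. In control IgG tumors it was at 1.53 CPM in 14L, 2.09 in 14R, 0.631 in 16R, 2.41 in 17R, and 0.274 in 20R. In non-responders it was at 17.4 CPM in 29L, 8.27 in 32R, 18.7 in 33L, and 17.1 in 33R. In responders it was at 44.1 CPM in 24L, 25.7 in 26R, 59.6 in 30L, 65.2 in 30R, and 14.7 in 35L. Every anti-PD-1 tumor was above every control IgG tumor, whether it responded or not, and the lowest of them, the non-responder 32R, was still above the highest control, 17R. Responders and non-responders overlapped through 1 tumor, the responder 35L, which lay below 3 of the 4 non-responders. The mean ± SD was 1.39 ± 0.919 CPM in the 5 control IgG tumors, 15.4 ± 4.77 CPM in the 4 non-responders, and 41.9 ± 21.6 CPM in the 5 responders, and every ± on a CPM or TPM mean below is an SD over these tumors.

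For Retnla the log2 fold change was 3.46 ± 0.53 (SE) for non-responders over control IgG tumors, 4.91 ± 0.54 for responders over control IgG tumors, and 1.45 ± 0.48 for responders over non-responders. On the log2 CPM scale the non-responders stood at 73.8% of the distance from control IgG tumors to responders. In TPM, Retnla was at 0.96 to 8.55 in control IgG tumors, 28.0 to 69.3 in non-responders, and 56.5 to 270.4 in responders. On this scale too the upper step overlapped through 35L alone, which at 56.5 TPM lay below 29L and 33L and above 32R and 33R. Tumors of one mouse had similar levels, with 1.53 and 2.09 CPM in 14L and 14R, 59.6 and 65.2 in 30L and 30R, and 18.7 and 17.1 in 33L and 33R. Some tumors of different mice were as close, since the non-responder 29L, at 17.4 CPM, lay between 33L and 33R. When 1 tumor was omitted, the log2 fold change of the upper step ran from 1.23 to 1.67, with 1.67 without 35L and 1.24 without 32R.

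The means of the other resistin-like genes, which code for relatives of RELM alpha, were not in this order. Retnlg, the neighbor of Retnla on chromosome 16, was at 0.988 ± 0.599 CPM in control IgG tumors, 1.09 ± 0.724 in non-responders, and 0.700 ± 0.409 in responders. Retnlb, which goblet cells of the gut make, was listed at 0 in all 14 tumors. Retn, the resistin gene of adipocytes, was at 1.80 ± 1.17, 1.21 ± 1.32, and 1.25 ± 0.914 CPM in the same order. In the transcripts of Retnla, 5.45% of the 31-base words also occur in Retnlg, so that few fragments could be divided between them.

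Lyz1 (ENSMUSG00000069515; mm10 chromosome 10, 117287797 to 117292868, minus strand) encodes lysozyme of the Paneth cell type, and Lyz2 beside it encodes the lysozyme of macrophages. The first 150 bases of both coding sequences are shown because their likeness limits how reads can be assigned, with the 14 bases that differ in capitals.

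Lyz1: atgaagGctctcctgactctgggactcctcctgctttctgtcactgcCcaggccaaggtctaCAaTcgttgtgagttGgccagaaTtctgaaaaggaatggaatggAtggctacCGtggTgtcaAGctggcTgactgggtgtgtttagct
Lyz2: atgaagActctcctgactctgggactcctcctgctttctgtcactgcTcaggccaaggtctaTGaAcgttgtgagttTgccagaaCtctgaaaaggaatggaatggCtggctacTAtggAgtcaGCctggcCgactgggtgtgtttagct

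The coding sequences of Lyz1 and Lyz2 were identical at 422 of 444 bases, or 95%, and 34.2% of the 31-base words of Lyz1 transcripts also occur in Lyz2. The level of Lyz1 is therefore uncertain, since RSEM divides a fragment that matches both. Lyz1 was at 5.40 CPM in 14L, 4.51 in 14R, 4.94 in 16R, 5.16 in 17R, and 4.30 in 20R. It was at 10.4 CPM in the non-responder 29L, 9.43 in 32R, 13.8 in 33L, and 18.1 in 33R, and at 17.5 CPM in the responder 24L, 21.7 in 26R, 24.8 in 30L, 21.9 in 30R, and 11.5 in 35L. The control IgG tumors stood apart from all anti-PD-1 tumors, and 2 responders, 24L and 35L, lay within the range of the non-responders, 24L below 33R alone. Its log2 fold change was 1.41 ± 0.22 (SE) for non-responders over control IgG tumors, 2.002 ± 0.21 for responders over control IgG tumors, and 0.59 ± 0.21 for responders over non-responders. In TPM the means were 5.68 ± 0.798, 13.7 ± 3.01, and 24.9 ± 6.59 in control IgG tumors, non-responders, and responders.

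Lyz2 was at far higher levels, 2036 ± 74.7 TPM in control IgG tumors, 2367 ± 318 in non-responders, and 2865 ± 342 in responders. Its log2 fold change was 0.35 ± 0.14 (SE) for responders over control IgG tumors (adjusted p = 0.106, edgeR) and 0.35 ± 0.14 for non-responders over control IgG tumors (adjusted p = 0.931, edgeR). Neither passed the test. The steps of Lyz1 were thus larger than those of Lyz2 on the log2 scale, and the difference between the paralogs was not tested.

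Il4ra (ENSMUSG00000030748; mm10 chromosome 7, 125552120 to 125579474, plus strand) is the receptor chain through which the state is induced. It was at 91.0 CPM in 14L, 89.9 in 14R, 89.6 in 16R, 84.8 in 17R, and 80.8 in 20R. In non-responders it was at 93.3 CPM in 29L, 80.7 in 32R, 91.7 in 33L, and 78.3 in 33R. In responders it was at 121.2 CPM in 24L, 111.6 in 26R, 104.7 in 30L, 120.9 in 30R, and 105.1 in 35L. The 5 responders lay above all other tumors, while control IgG tumors and non-responders covered one range. Responders differed from control IgG tumors by a log2 fold change of 0.37 ± 0.07 (SE) and from non-responders by 0.39 ± 0.08, while non-responders differed from control IgG tumors by -0.02 ± 0.08. In TPM the means were 31.3 ± 3.58 in control IgG tumors, 28.3 ± 6.30 in non-responders, and 43.5 ± 5.37 in responders, again with all responders above all other tumors.

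Clec10a and Mgl2 are neighboring genes on chromosome 11 that encode C-type lectins for galactose and N-acetylgalactosamine, known as MGL1 and MGL2, which are carried by alternatively activated macrophages and a part of dendritic cells. Of their 31-base words, 13.7% of those of Clec10a occur in Mgl2 and 19.3% of those of Mgl2 in Clec10a. Clec10a (ENSMUSG00000000318; mm10 chromosome 11, 70156197 to 70170834, plus strand) was at 10.3 CPM in 14L, 11.8 in 14R, 8.09 in 16R, 8.03 in 17R, and 6.86 in 20R. The non-responders had 16.2 CPM in 29L, 9.01 in 32R, 14.6 in 33L, and 15.6 in 33R, and in responders at 27.4 CPM in 24L, 20.9 in 26R, 22.4 in 30L, 26.4 in 30R, and 21.1 in 35L. All responders were above all other tumors, and 3 of the 4 non-responders were above all control IgG tumors, with 32R among the controls. On the log2 scale the fold change was 0.62 ± 0.18 (SE) for non-responders over control IgG tumors, 1.39 ± 0.17 for responders over control IgG tumors, and 0.77 ± 0.18 for responders over non-responders. On the log2 CPM scale non-responders stood at 43.3% of the distance to responders.

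Mgl2 (ENSMUSG00000040950; mm10 chromosome 11, 70130329 to 70137550, plus strand) had another order. It was at 10.5 CPM in 14L, 15.6 in 14R, 8.43 in 16R, 8.10 in 17R, and 5.10 in 20R. The non-responders had 5.93 CPM in 29L, 2.52 in 32R, 4.36 in 33L, and 3.45 in 33R, and in responders at 7.96 CPM in 24L, 10.4 in 26R, 8.45 in 30L, 11.7 in 30R, and 11.3 in 35L. The non-responders were lowest, with 1 control, 20R, within their range, and responders lay within the range of control IgG tumors. Mgl2 had a log2 fold change of -1.23 ± 0.29 (SE) for non-responders over control IgG tumors, 0.06 ± 0.27 for responders over control IgG tumors, and 1.29 ± 0.29 for responders over non-responders. In TPM the means were 8.40 ± 2.999 for Mgl2 and 8.68 ± 1.82 for Clec10a in control IgG tumors, 3.46 ± 1.51 and 12.7 ± 3.31 in non-responders, and 9.67 ± 1.79 and 24.9 ± 3.98 in responders. The lectins were thus at one level in control IgG tumors, and Clec10a was above Mgl2 in anti-PD-1 tumors.

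Folr2 (ENSMUSG00000032725; mm10 chromosome 7, 101839988 to 101857194, minus strand) encodes folate receptor beta of resident macrophages. It was at 34.2 CPM in 14L, 55.1 in 14R, 38.7 in 16R, 36.05 in 17R, and 39.995 in 20R. Levels in non-responders were 49.6 CPM in 29L, 47.7 in 32R, 44.9 in 33L, and 70.1 in 33R, and in responders at 56.4 CPM in 24L, 59.4 in 26R, 65.4 in 30L, 66.9 in 30R, and 43.4 in 35L. The means rose in order but all 3 groups overlapped, through the control 14R, the non-responder 33R, and the responder 35L. As log2 fold changes these were 0.38 ± 0.17 (SE) for non-responders over control IgG tumors, 0.51 ± 0.16 for responders over control IgG tumors, and 0.14 ± 0.17 for responders over non-responders.

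Ccl24 (ENSMUSG00000004814; mm10 chromosome 5, 135569937 to 135573049, minus strand) encodes eotaxin-2, a chemokine that attracts eosinophils. It was low, at 1.39 to 2.18 CPM in control IgG tumors, 1.07 to 2.92 in non-responders, and 1.49 to 3.72 in responders, from 46 to 141 fragments per tumor. The non-responder 32R was the lowest of all tumors and the responder 30L the highest, and the groups overlapped at both steps. Its log2 fold change was 0.26 ± 0.28 (SE) for non-responders over control IgG tumors and 0.52 ± 0.27 for responders over control IgG tumors. In log2(TPM + 0.1) the first of these was -0.04, so that its direction depended on the scale.

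Mrc1 (ENSMUSG00000026712; mm10 chromosome 2, 14229392 to 14332057, plus strand) encodes the mannose receptor CD206, which is often used to stain alternatively activated macrophages. It was at 282.5 CPM in 14L, 343.1 in 14R, 415.9 in 16R, 401.0 in 17R, and 366.6 in 20R. Levels in non-responders were 448.1 CPM in 29L, 256.7 in 32R, 327.7 in 33L, and 193.6 in 33R, and in responders at 266.7 CPM in 24L, 536.8 in 26R, 378.3 in 30L, 438.3 in 30R, and 483.3 in 35L. The groups overlapped in every pair, and 24L, which had more Retnla than all but 2 tumors, had less Mrc1 than all but 2. Mrc1 had a log2 fold change of -0.24 ± 0.23 (SE) for non-responders over control IgG tumors, 0.22 ± 0.21 for responders over control IgG tumors, and 0.46 ± 0.23 for responders over non-responders. Per length, Mrc1 at 104.9 ± 24.9 TPM was below Retnla at 164.4 ± 87.9 TPM in responders, whereas in control IgG tumors Mrc1 was at 82.2 ± 11.9 TPM and Retnla at 4.88 ± 3.17 TPM.

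Cd163 (ENSMUSG00000008845; mm10 chromosome 6, 124304656 to 124330527, plus strand) encodes the scavenger receptor for haptoglobin and hemoglobin. It was at 41.1 CPM in 14L, 46.5 in 14R, 50.6 in 16R, 28.4 in 17R, and 45.3 in 20R. Levels in non-responders were 39.0 CPM in 29L, 19.7 in 32R, 55.1 in 33L, and 21.0 in 33R, and in responders at 29.0 CPM in 24L, 36.1 in 26R, 23.5 in 30L, 29.0 in 30R, and 23.2 in 35L. Its means fell in the order in which those of Retnla rose, and the groups overlapped at both steps. The non-responders 33L and 33R, from one mouse, were the highest of all tumors and the second lowest. Cd163 had a log2 fold change of -0.33 ± 0.27 (SE) for non-responders over control IgG tumors, -0.59 ± 0.25 for responders over control IgG tumors, and -0.26 ± 0.27 for responders over non-responders.

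Chil3 (ENSMUSG00000040809; mm10 chromosome 3, 106147554 to 106167564, minus strand) encodes Ym1, a chitinase-like lectin that is a standard mark of the state beside Retnla and Arg1. It was near the lower limit, at 0.0914 to 3.80 CPM in control IgG tumors, 0.397 to 1.14 in non-responders, and 0.755 to 2.22 in responders, from 4 to 178 fragments per tumor. The highest tumor was the control 14R and the lowest the control 20R, so that control IgG tumors spanned the range of both other groups. Chil3 had a log2 fold change of 0.04 ± 0.65 (SE) for responders over control IgG tumors and -0.76 ± 0.71 for non-responders over control IgG tumors. When 1 tumor was omitted, the first ran from -0.26 to 1.09 and the second from -1.06 to 0.28. Its level is also uncertain because 41.5% of its 31-base words occur in other genes, 28.9% in Chil4.

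**Figure D2:**
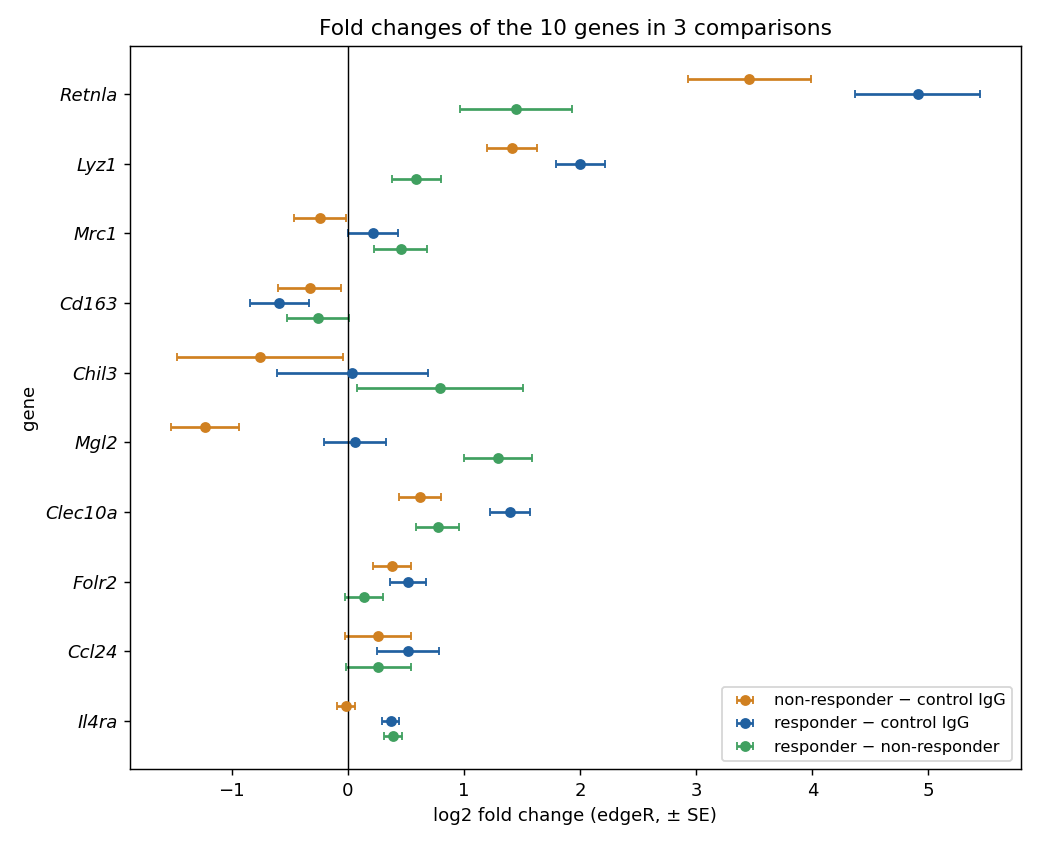
Log2 fold changes of the 10 genes (horizontal axis, edgeR, ± SE) for non-responders over control IgG tumors (orange), responders over control IgG tumors (blue), and responders over non-responders (green). Retnla reaches 4.91 and Lyz1 2.002 for responders over control IgG tumors, Mgl2 falls to -1.23 in non-responders, and the 3 fold changes of Cd163 are all below 0.

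Read against the threshold of the whole fit, 5 of the 10 genes were among those called higher in responders than in control IgG tumors (Retnla, Lyz1, Clec10a, Folr2, and Il4ra), where 7.88% of all genes tested were called higher and 13.2% in either direction. Against non-responders, 3 were among those called higher (Mgl2, Clec10a, and Il4ra), where 5.08% of all genes were called higher and 9.9% in either direction. Between non-responders and control IgG tumors 0 of the 10 were called, and 0% of all genes were. That depended on the fit, since Retnla and Lyz1 were called higher there with DESeq2, which also called Mgl2 lower, without a low-count filter, and without 35L. Folr2 was the least stable of the 5, being called in 4 of the 14 fits that omitted 1 tumor. For responders against non-responders the call was made for 1 gene, Il4ra, without 32R, and for 5, with Retnla and Lyz1 added, without 35L and with a length offset. Clec10a was not called there without 24L or without 30R, and without 33R Lyz1 was called in place of Mgl2. With the mouse as a random effect Retnla was called there beside the 3, with 1 library per mouse it was not, and Lyz1 was called beside the 3 with DESeq2 and on both TPM scales. The random-effect fit used a correlation within a mouse of -0.28, so it did not count tumors of one mouse as less than separate tumors. Because the genes were chosen for these differences, nothing is read from the counts.

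The level of macrophage genes in general was set beside these values. The mean log2 CPM of 12 pan-macrophage genes was 7.38 ± 0.09 in the 5 control IgG tumors, 7.37 ± 0.11 in the 4 non-responders, and 7.71 ± 0.15 in the 5 responders (mean ± SD), and all responders were above all other tumors. Of the 12, 2 rose in responders over control IgG tumors in edgeR's test, Adgre1, which encodes F4/80, with a log2 fold change of 0.35 ± 0.10 (SE, adjusted p = 0.0278), and Ctss, which encodes cathepsin S, with 0.58 ± 0.11 (SE, adjusted p = 0.00485). When the mean of the 12 was subtracted, Retnla was at -7.21 ± 1.16 in control IgG tumors, -3.49 ± 0.50 in non-responders, and -2.52 ± 0.80 in responders on the log2 scale, and the anti-PD-1 tumors were still all above the control IgG tumors. Lyz1 likewise went from -5.09 ± 0.16 to -3.72 ± 0.43 and -3.47 ± 0.42, and Clec10a from -4.23 ± 0.25 to -3.61 ± 0.32 and -3.15 ± 0.05, with all responders above all other tumors. For Il4ra the gap closed, with -0.94 ± 0.10, -0.95 ± 0.14, and -0.89 ± 0.08 in the same order and all 3 groups overlapping. Folr2 and Ccl24 lost their order of means. The summed CPM of the same 12 genes, to which Lyz2 adds most, was 3666 to 4327 in control IgG tumors, 3851 to 5453 in non-responders, and 4414 to 5454 in responders. Between non-responders and control IgG tumors the log2 fold changes of the 12 went both ways, from 0.35 for Lyz2 and 0.28 for Ctss to -0.32 for Csf1r, and none passed edgeR's test. The part of macrophage number in the steps of the 10 genes was not tested.

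Other cell types were followed by lists of their genes. The summed CPM of 7 monocyte genes was 1536 to 3147 in control IgG tumors, 1287 to 3392 in non-responders, and 2905 to 3715 in responders, and 5 of the 7 rose in responders over control IgG tumors. Most of that sum is Fn1, which other cells make too, and the mean log2 CPM of the 7 genes, in which each gene counts alike, was higher at both of the steps described for Retnla, without overlap. It was 5.12 to 5.66 in control IgG tumors, 5.69 to 5.93 in non-responders, and 6.30 to 6.92 in responders. One of the 7 is F10, itself strictly graded, and without it, a choice made after these values were seen, the mean was 6.03 to 6.502, 6.35 to 6.62, and 7.05 to 7.61, with overlap at the lower step and none at the upper. The summed CPM of 6 dendritic cell genes was 17.7 to 29.7 in control IgG tumors, 17.0 to 21.0 in non-responders, and 29.3 to 41.9 in responders, with 4 of the 6 higher in responders than in control IgG tumors. Eosinophil genes were low, with a summed CPM of 6 genes of 0.338 to 2.48 over all tumors and the granule gene Epx at 0 to 3 fragments per tumor. Skin and fat are tissues in which Retnla is also known to be expressed, and their genes overlapped between all 3 groups. The summed CPM of 8 epidermal genes was 8.05 to 742 in control IgG tumors, 143 to 311 in non-responders, and 13.2 to 1018 in responders, and that of 8 adipocyte genes 84.2 to 159.7, 71.6 to 206.7, and 88.4 to 175.4. None of the 8 epidermal and none of the 8 adipocyte genes was called in any of the 3 comparisons by edgeR. The part of these cell types in the values of the 10 genes was not tested.

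Beside the 10 genes, 56 other genes of the IL-4 and IL-13 pathway and of resident macrophages were followed, of which 51 could be tested. In responders over control IgG tumors, 14 rose and 1 fell, with a median log2 fold change of 0.26 against -0.01 over all genes. Of all genes tested, 7.88% rose there and 13.2% changed in either direction. In responders over non-responders, 13 rose and 1 fell, with a median of 0.34 against 0.01. Of all genes tested, 5.08% rose there and 9.9% changed in either direction. In non-responders over control IgG tumors none passed edgeR's test, with a median of -0.08 against 0.01. There 8 of the 51 had an unadjusted p under 0.05, 4 of them higher and 4 lower, against 758 of all 16287 genes tested. The counts rested on single tumors, since 8 of the 15 calls against control IgG tumors were left when 20R or 24L was omitted, and 4 of the 14 against non-responders when 24L or 32R was, 5 without 33R, and 6 without 30R. With 1 library per mouse, 8 of the 14 calls against non-responders were kept, and all 15 against control IgG tumors.

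The ligands themselves were hardly seen. Il4 was at 0 to 1 fragments and Il13 at 0 to 2 fragments per tumor, and Il25, an inducer of both, at 0 to 2, so that a difference in any of them was not detectable at this depth. Il33, the alarmin that acts on the cells that make IL-4 and IL-13, was at 20.2 ± 7.89, 19.7 ± 5.03, and 21.95 ± 3.46 CPM in control IgG tumors, non-responders, and responders. Of the 5 ligands and inducers tested, Il10 rose in responders over control IgG tumors by 1.13 ± 0.32 (SE, adjusted p = 0.0337), and Csf1, the growth factor of macrophages, fell by 0.39 on the log2 scale (SE 0.10, adjusted p = 0.0191).

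Of the 7 receptor and kinase genes, 3 rose in responders over control IgG tumors. Il13ra1, the partner of Il4ra in the receptor that also binds IL-13, was at 34.9 ± 6.28 CPM in control IgG tumors, 41.5 ± 4.38 in non-responders, and 57.4 ± 12.5 in responders, a log2 fold change of 0.72 ± 0.15 (SE, adjusted p = 0.0081) for responders over control IgG tumors. Il2rg, the common gamma chain of the receptor for IL-4, rose by 0.47 ± 0.12 (adjusted p = 0.0186), and the kinase gene Tyk2 by 0.43 ± 0.11 (adjusted p = 0.0205). Il2rg and Tyk2 also rose in responders over non-responders, as did Jak1 by 0.38 ± 0.10 (adjusted p = 0.0357). Of the 14 fits that omitted 1 tumor, this call was kept in 14 for Il2rg, 10 for Jak1, and 3 for Tyk2. With 1 library per mouse, Tyk2 was not called there. Stat6 was level, at 141 ± 8.75, 137 ± 14.3, and 145 ± 5.14 CPM, with a log2 fold change of 0.04 ± 0.07 for responders over control IgG tumors.

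Of 9 genes for factors that act in the IL-4 response, Irf4 rose in responders over control IgG tumors, from 1.23 ± 0.470 to 3.28 ± 0.380 CPM (log2 fold change 1.41 ± 0.26, adjusted p = 0.00368), and over non-responders at 1.38 ± 0.417 CPM (1.25 ± 0.28, adjusted p = 0.0175). IRF4 is a transcription factor that lies downstream of the demethylase encoded by Kdm6b in the alternative state, and lymphocytes make it too. Cish, a feedback inhibitor of cytokine signaling, rose in responders over non-responders by 0.80 ± 0.22 (adjusted p = 0.038). The other 7, with Pparg, Klf4, and Kdm6b among them, did not pass in any of the 3 comparisons.

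Of 17 further targets, 16 were tested, and 7 rose in responders over control IgG tumors. Arg1, the arginase that defines the state with Retnla and Chil3, was not among them. It was at 86.1 ± 25.0 CPM in control IgG tumors, 136 ± 36.8 in non-responders, and 94.7 ± 33.1 in responders, with log2 fold changes of 0.65 ± 0.25 for non-responders over control IgG tumors (adjusted p = 0.931) and 0.14 ± 0.24 for responders over control IgG tumors (adjusted p = 0.756), so that its highest mean was in the middle group of Retnla. The transglutaminase gene Tgm2 rose from 267 ± 34.6 to 494 ± 75.6 CPM (log2 fold change 0.89 ± 0.17, adjusted p = 0.00515), with non-responders at 302 ± 95.9 CPM. Pdcd1lg2, which encodes PD-L2, a second ligand of PD-1, rose from 1.06 ± 0.437 to 3.43 ± 2.501 CPM (1.69 ± 0.45, adjusted p = 0.0229), and the chemokine gene Ccl17 from 0.210 ± 0.0441 to 0.483 ± 0.106 CPM (1.19 ± 0.29, adjusted p = 0.0146). The others were Ear2, a ribonuclease gene, with 1.52 ± 0.35, Cd209a, a lectin gene of dendritic cells, with 0.92 ± 0.26, Ccl8 with 0.84 ± 0.25, and Ptgs1, which encodes cyclooxygenase 1, with 0.44 ± 0.12. Ccl17 rested on 3 to 27 fragments per tumor and Ear2 on 4 to 42. Tgm2, Pdcd1lg2, Ccl17, Ear2, Ptgs1, and Ccl22, the partner of Ccl17, rose in responders over non-responders, for Ccl22 by 1.18 ± 0.27 (adjusted p = 0.019). With 1 library per mouse, Tgm2, Pdcd1lg2, Ear2, and Ptgs1 were not called there.

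Of 14 genes of resident macrophages that were tested, 2 rose in responders over control IgG tumors. Cd5l, which encodes the secreted protein AIM, was at 0.537 ± 0.341 CPM in control IgG tumors, 3.78 ± 2.44 in non-responders, and 5.53 ± 3.21 in responders, and the non-responders, at 1.55 to 7.22 CPM, were all above the control IgG tumors, at 0.217 to 1.077. Its log2 fold change was 3.37 ± 0.55 for responders over control IgG tumors (adjusted p = 0.00201) and 2.81 ± 0.56 for non-responders over control IgG tumors, which did not pass in edgeR (adjusted p = 0.279) and did in DESeq2. Timd4, a receptor for phosphatidylserine, was at 1.89 ± 0.854, 2.704 ± 1.02, and 8.85 ± 3.997 CPM (2.22 ± 0.41, adjusted p = 0.00337, for responders over control IgG tumors). Vsig4, a complement receptor, was the exception among the genes called between responders and non-responders, at 4.55 ± 1.39 CPM in non-responders against 2.08 ± 0.549 in responders (-1.13 ± 0.24, adjusted p = 0.0137), and the transcription factor gene Maf was higher in responders by 0.48 ± 0.12 (adjusted p = 0.0298). Lyve1, Stab1, F13a1, Pf4, and Fcna did not pass in any comparison.

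**Figure D3:**
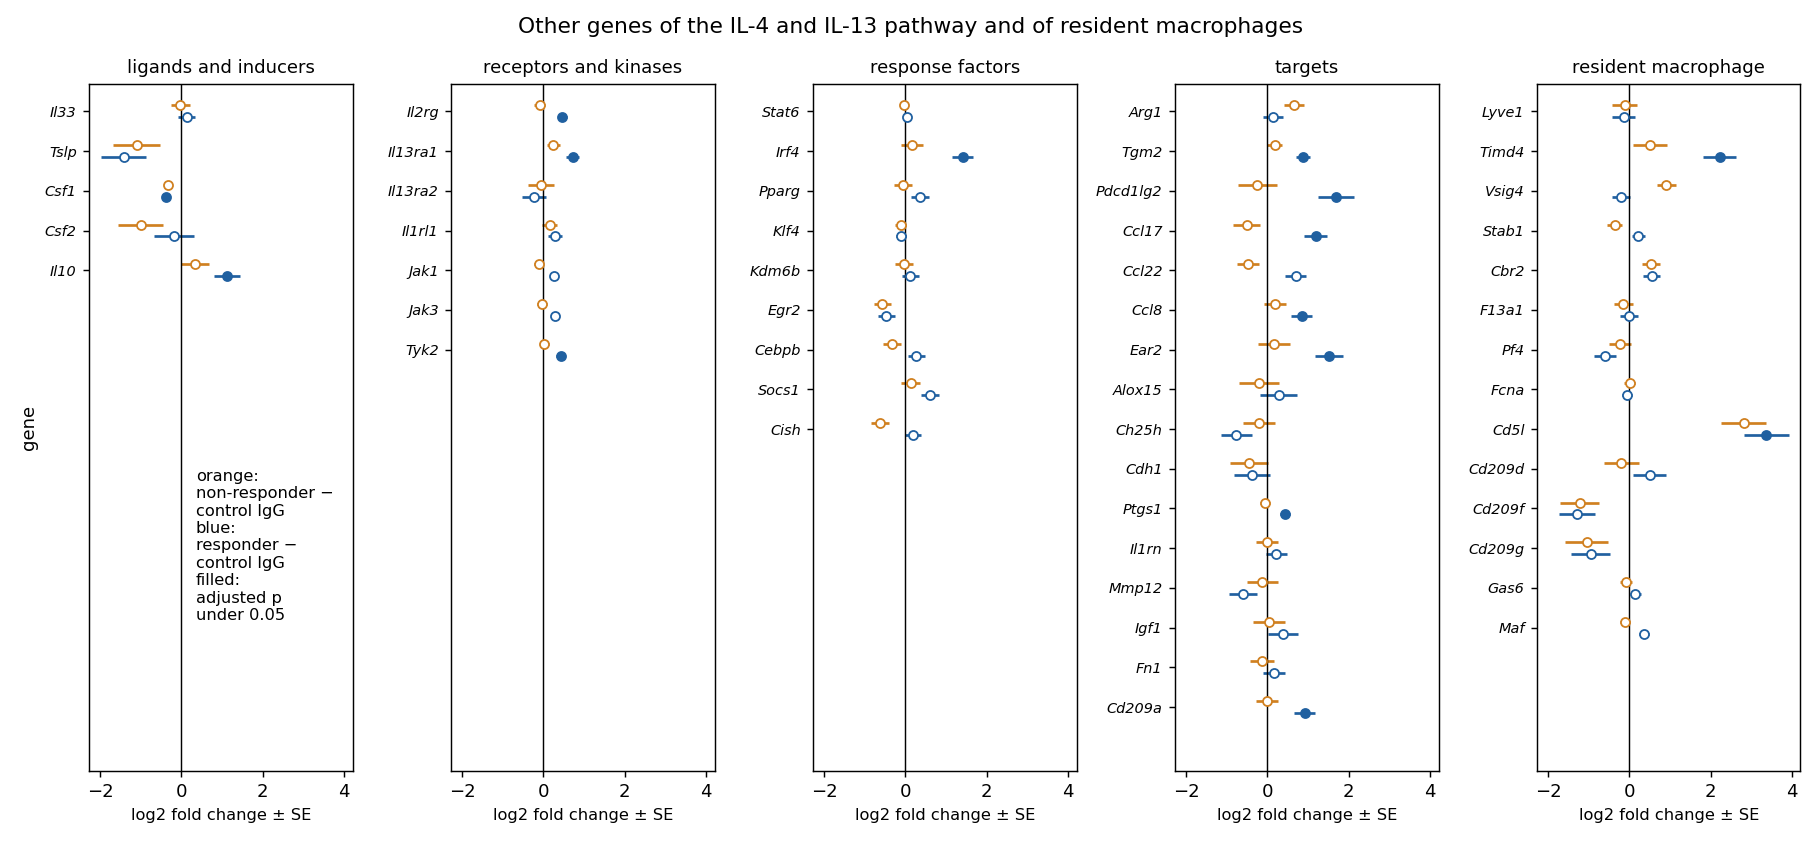
Log2 fold changes (horizontal axes, edgeR, ± SE) of the 51 tested pathway and resident macrophage genes in 5 lists, for non-responders over control IgG tumors (orange) and responders over control IgG tumors (blue), filled where the adjusted p was under 0.05. No orange point is filled, and Cd5l at 2.81 is the orange point farthest to the right.

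Genes of classical activation, the state that interferon gamma and bacterial products induce, were measured for contrast. Of the 14, 7 rose in responders over control IgG tumors, where 7.88% of all genes tested did. Among them were Ido1 with a log2 fold change of 2.43 ± 0.37 (adjusted p = 0.00144), Cxcl9 with 1.26 ± 0.28 (adjusted p = 0.00888), and Nos2, the enzyme that competes with arginase for arginine, with 1.14 ± 0.28 (adjusted p = 0.0173). In non-responders over control IgG tumors none passed, with a median log2 fold change of -0.10 for the 14 and values of 0.05 ± 0.39 for Ido1, -0.12 ± 0.29 for Cxcl9, and 0.08 ± 0.30 for Nos2. Genes of both states were thus higher in responders. The difference between the lists was not tested.

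The genes whose values over the 14 tumors were most like those of Retnla were named by Pearson's correlation of log2 CPM, among 12203 genes with a mean log2 CPM of at least 1. Among the 10 genes, Lyz1 was at 0.94 with rank 3 of all genes ranked, Clec10a at 0.91 with rank 6, Folr2 at 0.74, Il4ra at 0.66, and Ccl24 at 0.47, while Mrc1 was at 0.03, Mgl2 at -0.001, and Cd163 at -0.50. Chil3, at 0.42, was too low to be ranked. Outside them the 8 most alike were Smpdl3a at 0.95, Ms4a8a at 0.95, F10 at 0.94, Pltp at 0.93, Nr1h3 at 0.90, Ptafr at 0.90, Ctss at 0.89, and Bst1 at 0.89. Smpdl3a encodes a phosphodiesterase, F10 coagulation factor X, and Bst1 the surface enzyme CD157. Pltp, which encodes the phospholipid transfer protein, was at 56.4 ± 5.70 CPM in control IgG tumors, 96.6 ± 4.16 in non-responders, and 137.3 ± 36.5 in responders, and Nr1h3, which encodes the lipid sensor LXR alpha, at 4.25 ± 0.761, 7.70 ± 1.79, and 14.7 ± 5.52. Ms4a8a, F10, and Ptafr, which encodes the receptor of platelet-activating factor, were themselves among the 10 strictly graded genes of all those tested. By Retnla the control IgG tumors lie apart from the anti-PD-1 tumors. Differences between the groups thus enter these coefficients, to an extent that was not tested. With the group means removed, they were 0.59 to 0.73 for the 8 genes, 0.55 for Lyz1, 0.68 for Clec10a, and 0.51 for Mgl2, and all are given as a description over tumors that in part share a mouse.

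**Figure D4:**
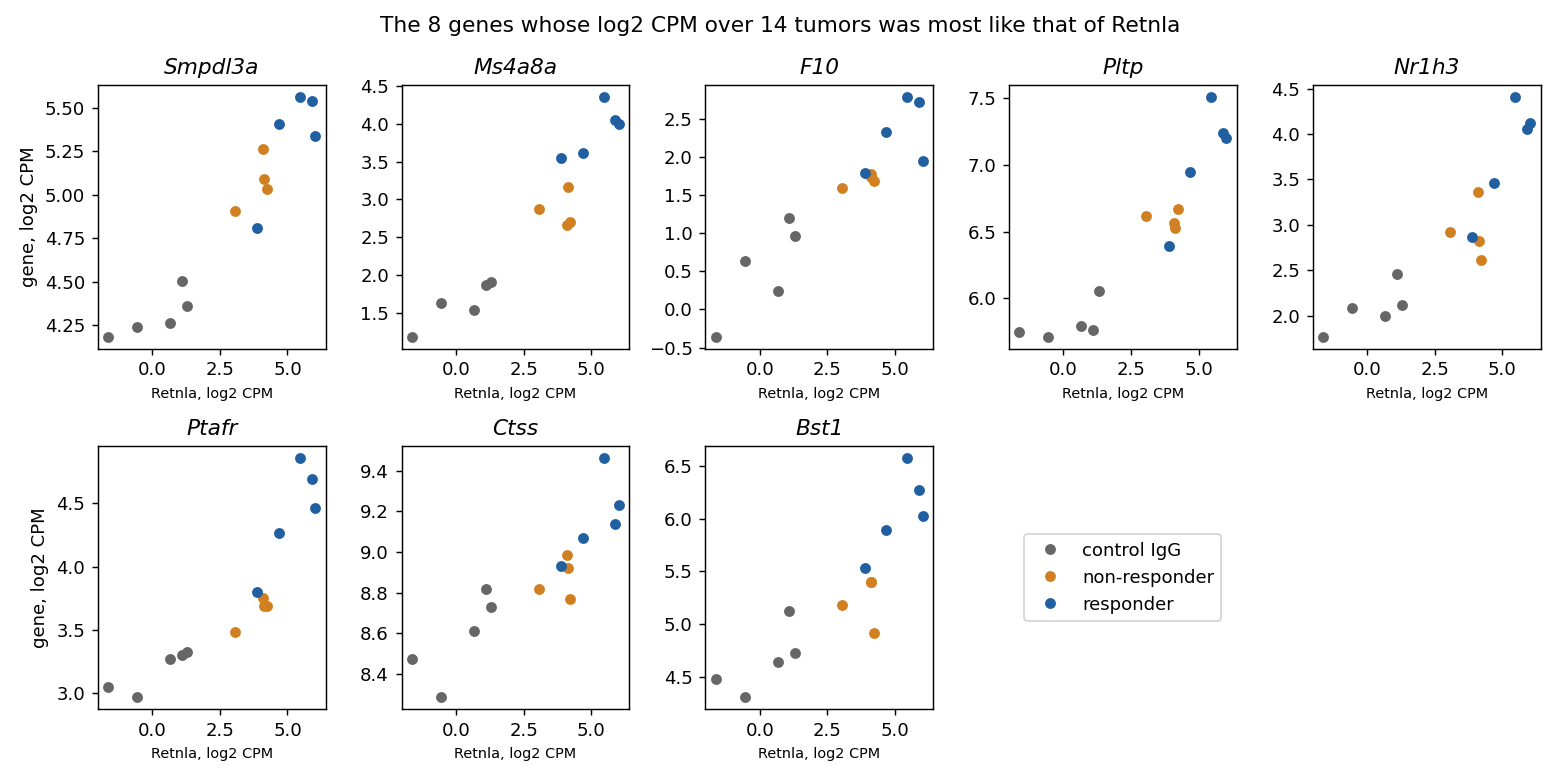
Log2 CPM of the 8 genes most like Retnla (vertical axes) against log2 CPM of Retnla (horizontal axes) in control IgG tumors (gray), non-responders (orange), and responders (blue), 1 point per tumor. In each panel the control IgG tumors form a group at the lower left and the responder 35L lies beside the non-responders on the Retnla axis, at 14.7 CPM.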

How the data were processed

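For each tumor the authors deposited RSEM expected counts, TPM, and FPKM of Ensembl genes, from reads aligned to mm10 with STAR, settings that their methods state for cell lines and refer to for tumors. The expected counts deposited by the authors were rounded. The TPM values deposited by the authors are scaled by length and total, and their FPKM values were not used. Of 53801 genes, 53620 had a symbol. Libraries of a group differed beyond sampling noise (chi-square per gene of 22.2 or more), and all were kept.

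The counts were fitted with edgeR 4.0.16 in R 4.3.3 (TMM, filterByExpr, quasi-likelihood test, 3 groups, no covariates, SE from the F statistic), with log2 CPM at a prior count of 2. P-values measure the spread between tumors, some of which share a mouse. Alternatives were DESeq2 1.42.0, its size factors, other filters, limma 3.58.1 on TPM with pseudocounts of 1 and 0.1, limma-voom with mouse as a random effect, 1 library per mouse, a length offset, and the omission of each tumor. The test was checked on simulated counts in which all tumors were independent, so that the sharing of a mouse was not covered.

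The 10 genes and all lists were chosen with earlier results of these data known. The genes named are the 10, those of the 5 pathway lists called in any comparison with Arg1, Stat6, Il4, Il13, and Il13ra1, genes of classical activation, macrophages, and paralogs set beside them, and the 8 most like Retnla. Others named, such as Il25, Il33, Epx, and genes that did not pass, were chosen after their values were seen. The SDs and SEs measure the spread between tumors, and counts of 0 cover counting error only.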

Additional observations from a re-analysis of the deposited data

Results flagged for a closer look

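Of 81 groups checked, 7 had a tumor that stood apart by Dixon's 95% criterion, where chance gives about 1 in 20 groups. Among the 10 genes, Retnla was lowest in the non-responder 32R, at 8.27 CPM with the next at 17.1, Chil3 was highest in the control 14R, at 3.80 CPM with the next at 1.05, and Folr2 was highest in the control 14R, at 55.1 CPM with the next at 39.995. The control 14R also had the highest summed CPM of 8 skeletal muscle genes, 1299 against 245 in the next control. The summed CPM of 6 dendritic cell genes was highest among controls in 14L, at 29.7, and that of 6 neutrophil genes in 16R, at 64.7. The summed CPM of 8 epidermal genes was lowest among non-responders in 33R, at 143.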

How the results depend on the processing

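Among the 10 genes, the sign of a log2 fold change differed from the reported one in at least 1 of the 9 alternatives or 14 omissions for Chil3 in responders against control IgG tumors and non-responders against control IgG tumors, Mgl2 in responders against control IgG tumors, Ccl24 and Il4ra in non-responders against control IgG tumors, and Cd163 in responders against non-responders. None of these was among the calls, and all others kept their sign. The number of the 10 genes with means in rising order was 5, with 4 to 6 under the alternatives and 5 to 6 in the omissions. Genes called between responders and non-responders were 1612, but 2594 with DESeq2 and 2973 when limma-voom took the mouse as a random effect, with a correlation within a mouse of -0.28. Genes called between non-responders and control IgG tumors were 16 with DESeq2 and 3 without a low-count filter, and the other pathway gene called there with DESeq2 was 1, Cd5l. The other pathway genes called between responders and non-responders were 22 with log2(TPM + 1) and 22 with log2(TPM + 0.1). Omitting 1 tumor gave 1190 to 3385 genes called for responders against control IgG tumors (1190 without 20R, 1192 without 24L, 1387 without 30R, and 3385 without 33R), 0 to 5 for non-responders against control IgG tumors (5 without 35L), and 569 to 1978 for responders against non-responders (569 without 24L, 615 without 32R, 686 without 30R, and 793 without 33R). The other pathway genes called were 8 to 18 (8 without 20R and without 24L), 0 to 0, and 4 to 14 (4 without 24L and without 32R). Of the 15 called against control IgG tumors, 7 were called in every omission and in every alternative that tested them (Il13ra1, Irf4, Tgm2, Ccl17, Ear2, Timd4, and Cd5l). Of the 14 called against non-responders, this held for 3 (Il2rg, Ccl17, and Vsig4). Ccl17 and Ear2, which are low, were tested in 8 of the 9 alternatives. Of the 10 genes, those called for responders against non-responders were Il4ra alone without 32R, 5 without 35L, and 5 with a length offset, while Retnla joined the 3 when the mouse was a random effect and did not with 1 library per mouse. Clec10a lost this call without 24L or without 30R, and Mgl2 lost it without 33R. Retnla and Lyz1 were called for non-responders against control IgG tumors without 35L, with DESeq2, and without a low-count filter, where they were 2 of the 3 genes called. The causes were not tested. No paired analysis was possible because both tumors of a mouse are in 1 group, so that no mouse links the groups. Depth limits Il4, Il13, Chil3, and Ccl24, and also Ccl17 at 3 to 27, Ear2 at 4 to 42, and Il10 at 9 to 61 fragments per tumor.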
